A study of Mus musculus with 21 samples.

Results

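The right lung of mice was compared 7 days after surgical removal of the left lung (left pneumonectomy) with the right lung before that operation (day 0). The 6 arrays of the comparison, of 21 in the series, were those whose labels give day 7 after or day 0 before left pneumonectomy. Each time had 3 arrays, for the medial lobe, the cardiac lobe and the whole right lung, paired by region. The lobes are parts of the whole lung. All mice were male C57BL/6, an inbred laboratory strain, and the labels give no age. The day 7 lungs had been through surgery and the day 0 lungs had not, so what the operation changed and what the loss of the left lung changed cannot be told apart. The other arrays held the right lung at days 3, 14, 28 and 56 after pneumonectomy and at day 56 after sham surgery, with the same 3 regions each. The labels do not say how many animals gave each RNA, whether RNA was pooled, or whether the regions of 1 day came from the same animals. The p-values therefore measure no known spread between animals. They rest on how far the 3 regions disagree in their changes over all 21 arrays, which may be technical or regional. Precision was limited by 3 arrays a group.

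After removal of 1 lung, the remaining lobes of adult rodents grow. Epithelial, endothelial and mesenchymal cells divide, and collagen and elastin are laid down in new alveolar walls. Macrophages and innate lymphoid cells are known to enter or change state in the growing lung, and mesothelial cells cover the surface that has to expand. The title of the series frames this course as a phase of lost differentiation followed by renewed development, and the day 7 comparison bears on which lung cell programmes stood higher or lower in that period.

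Values are log2 expression by array, so a difference of 1 is a doubling, and ± gives the standard error of a difference in the fit. The day 7 cardiac lobe array had the narrowest spread of values of its region, with an interquartile range of 3.545 against 3.73 for the next lowest of the 7 cardiac lobe arrays. Its small RNA genes, 59 in number, averaged 8.15, against 6.93 on the day 0 cardiac lobe array. The same genes averaged 8.31 at day 7 and 7.77 at day 0 in the whole lung, and 7.16 and 6.90 in the medial lobe. The day 0 arrays stood at an end of the series too. In each region the day 0 array had the widest spread, with interquartile ranges of 3.806 (medial lobe), 3.859 (cardiac lobe) and 3.755 (whole lung). Its small RNA mean was the lowest of the medial lobe and of the whole lung arrays. What part this had in the differences from day 0 was not tested. Over all genes the differences between day 7 and day 0 had an SD of 0.539 in the cardiac lobe, 0.283 in the medial lobe and 0.292 in the whole lung. The count of each list is therefore also given without the day 7 cardiac lobe array, and so is the value of a named gene that then no longer passed. Its part in the results was not tested beyond that. Markers of lung cells stood where a lung should have them. The mean of 5 alveolar type II markers ran from 12.07 to 12.52 at day 7 and from 12.23 to 12.48 at day 0, and that of 5 endothelial markers from 10.49 to 10.91 at day 7 and from 10.81 to 11.06 at day 0. Markers of thymus (4.76 to 4.83 at day 7 and 4.63 to 4.72 at day 0) and of liver (4.98 to 5.28 at day 7 and 4.93 to 5.11 at day 0) lay near the bottom of the scale. Heart muscle markers did not, at 7.84 to 8.63 at day 7 and 7.97 to 8.92 at day 0. Skeletal muscle markers averaged 6.63, 7.11 and 6.49 in the medial lobe, cardiac lobe and whole lung at day 7, and 6.44 to 6.52 at day 0. How much other tissue each piece of lung carried was not tested.

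Of 19938 genes, 743 were higher and 990 lower at day 7 than at day 0, which is 3.73% and 4.97% of all genes and 8.69% in all (limma with a term for region, Benjamini-Hochberg adjusted p under 0.05). With the day 7 cardiac lobe array left out, 285 were higher and 244 lower, or 1.43%, 1.22% and in all 2.65%. The calls made both ways numbered 490 (2.46%), with 259 higher and 231 lower. All 1733 genes called with every array kept their direction without it. The remaining arrays had also gone into the calls, so the kept direction was close to fixed in advance and is no separate support. The cardiac lobe gave the largest of the 3 regional differences for 72.2% of the called genes, and for 62.9% of all genes. The day 0 arrays mattered as well, since 547 genes were called without the day 0 cardiac lobe and 491 without the day 0 whole lung. Set against day 56 sham in place of day 0, with the day 7 arrays shared by both comparisons, 473 genes were higher (2.37%) and 429 lower (2.15%), or 4.52% in all. Of the 490 genes called with and without the cardiac lobe array, 276 were also called in the same direction against sham, 201 of them higher and 75 lower. In tissue, fewer cells of a type and less RNA per cell cannot be told apart, and this holds for every gene group described.

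**Figure D1:**
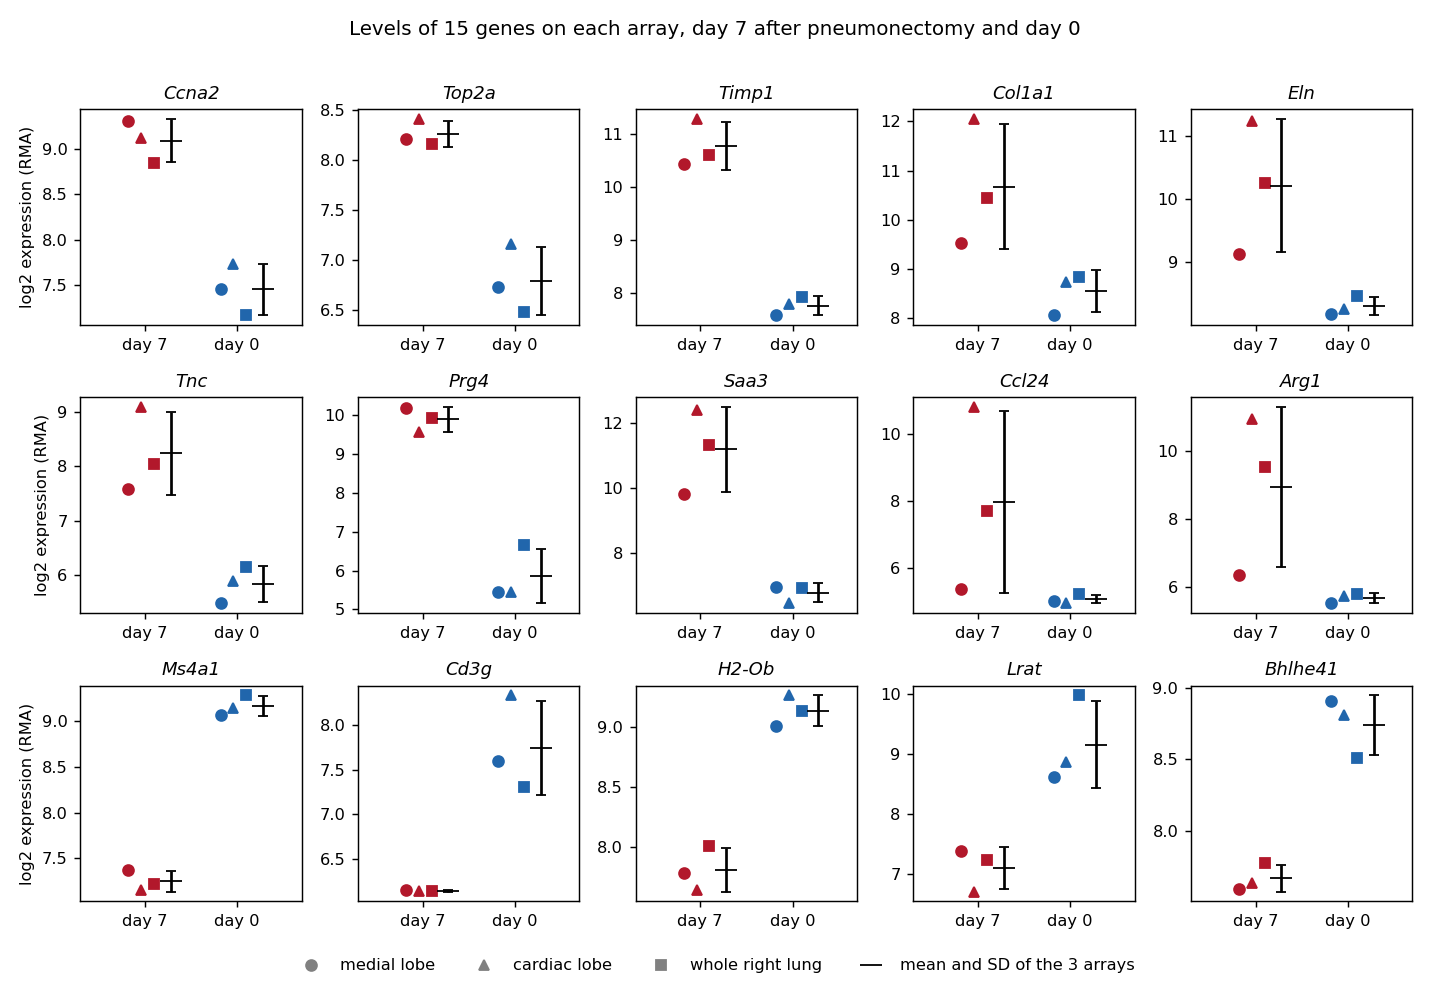
Log2 expression of 15 genes on each array, with the 3 day 7 arrays left of the 3 day 0 arrays in each panel and symbols for the region; the black bar is the mean with its SD. Ccna2, Timp1, Prg4 and Saa3 were higher on every day 7 array than on any day 0 array, whereas Ccl24 and Arg1 were near day 0 levels in the medial lobe and far above them in the cardiac lobe.

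Genes of cell division formed the group with the highest share of calls among the 64 lists. Of 48 measured genes of mitosis 43 rose, and all 48 had a higher value at day 7. The median difference was 1.0, against 0.026 over all genes. The medial lobe gave a median of 1.15, the cardiac lobe 0.93 and the whole lung 0.96. Leaving out the day 7 cardiac lobe array, 36 rose with a median of 1.10, and against sham 43 rose with a median of 1.13. Ccna2, the cyclin that drives DNA replication and entry into mitosis, stood at 9.31, 9.11 and 8.84 in the medial lobe, cardiac lobe and whole lung at day 7, against 7.46, 7.73 and 7.17 at day 0. The day 7 and day 0 arrays did not overlap, and the difference was 1.63 ± 0.25, or 3.10-fold (adjusted p = 0.00179). Prc1, which bundles the microtubules of the dividing spindle, reached 7.76, 7.94 and 7.62 at day 7, against 6.10, 6.54 and 5.79 at day 0 (1.63 ± 0.23, adjusted p = 0.00101). Top2a, the topoisomerase that untangles chromosomes, was at 8.21, 8.40 and 8.16 at day 7, against 6.73, 7.16 and 6.48 at day 0 (1.47 ± 0.23, adjusted p = 0.00181). In these 3 genes the cardiac lobe had the highest value of the regions at day 0. The mitotic kinase Pbk rose by 1.48 ± 0.29 and Cep55, which acts in the final separation of daughter cells, by 1.44 ± 0.25.

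Among the 5 mitosis genes that did not pass was Ect2, which acts in cytokinesis. Its values were 8.51, 7.13 and 8.13 at day 7, against 7.05, 7.06 and 6.66 at day 0. The medial lobe and the whole lung were well above day 0 and the cardiac lobe was not, giving 1.0 ± 0.35 (adjusted p = 0.0828). Without that array the difference was 1.55 (adjusted p = 0.00766). Ttk, a spindle checkpoint kinase, differed by 0.54 ± 0.20 and Nek2, a centrosome kinase, by 0.47 ± 0.19, and neither passed.

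The DNA replication list moved less. Of 46 measured genes 22 rose and none fell, with a median of 0.51, and 41 had a higher value at day 7. Without the day 7 cardiac lobe array 11 rose, and against sham 29 rose. Rrm2, the ribonucleotide reductase subunit that supplies DNA building blocks in S phase, stood at 8.67, 8.50 and 8.12 at day 7, against 7.23, 7.39 and 6.88 at day 0 (1.26 ± 0.20, adjusted p = 0.00204). Uhrf1, which maintains DNA methylation at replication, rose by 1.12 ± 0.21, and the thymidine-supplying enzymes Tk1 and Tyms by 0.93 ± 0.16 and 0.88 ± 0.16. Cyclin E2 (Ccne2) rose by 0.98 ± 0.29 (adjusted p = 0.0459). The replication helicase subunit Mcm3, at 0.62 ± 0.20, and the DNA polymerase subunit Pole, at 0.61 ± 0.21, did not pass against day 0 (adjusted p = 0.0633 and adjusted p = 0.0752) and did against sham (0.81 and 0.89, adjusted p = 0.0298 and adjusted p = 0.0222).

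Because the mitosis genes moved together, their promoters were read for the letters of 2 elements known in cell cycle genes. These are TTTGAA, the core of the cell cycle genes homology region, and CCAAT, the box bound by NF-Y, each searched on both strands of 250 bases before to 50 bases after the start site. Of the 48 genes 37 had a promoter in the RefSeq table (GRCm38.p6). TTTGAA was found for 28 of the 37 (75.7%), against 20.2% of all genes in the table, and CCAAT for 25 of 37 (67.6%), against 41.1% of all genes. Among the 43 genes that rose, 33 had a promoter and 26 of them held TTTGAA (78.8%). Of the 5 that did not pass, 4 had one and 2 held the motif (50%). CCAAT was found for 66.7% of the genes that rose and for 75% of those that did not pass, so the motifs differed in direction over these few genes. Ccna2 and Pbk, among the 5 largest rises, are not in the table. The promoters of the other 3 and of Nusap1, a spindle protein gene with the next largest rise (1.43), are printed to show genes with and without the motifs, 5′ to 3′ on the strand of the gene, with TTTGAA and CCAAT or their reverse complements TTCAAA and ATTGG in capitals. In Prc1 (chr7:80294201-80294500, plus strand, the first of 2 listed starts) the TTTGAA begins 5 bases before the start and the CCAAT 37 bases before it. Top2a (chr11:99024140-99024439, minus strand) holds TTTGAA at 179 and at 23 bases before the start and 6 CCAAT boxes. Cep55 (chr19:38054734-38055033, plus strand, the first of 2 listed starts) has its only TTTGAA 25 bases after the start and no CCAAT. Nusap1 (chr2:119618048-119618347, plus strand) holds neither motif in this window. A match is a description of letters and not evidence that a factor was bound.
Prc1: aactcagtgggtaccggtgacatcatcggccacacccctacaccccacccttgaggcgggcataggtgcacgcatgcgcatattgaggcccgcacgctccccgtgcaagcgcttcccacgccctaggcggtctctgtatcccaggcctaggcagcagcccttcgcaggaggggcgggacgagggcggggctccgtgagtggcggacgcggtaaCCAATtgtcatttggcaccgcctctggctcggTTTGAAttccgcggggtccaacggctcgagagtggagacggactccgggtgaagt
Top2a: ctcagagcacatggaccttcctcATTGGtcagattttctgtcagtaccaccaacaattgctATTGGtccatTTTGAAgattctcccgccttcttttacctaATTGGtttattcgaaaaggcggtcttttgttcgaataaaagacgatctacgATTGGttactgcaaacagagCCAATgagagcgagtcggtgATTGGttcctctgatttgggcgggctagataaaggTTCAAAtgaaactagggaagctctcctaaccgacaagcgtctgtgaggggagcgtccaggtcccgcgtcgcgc
Cep55: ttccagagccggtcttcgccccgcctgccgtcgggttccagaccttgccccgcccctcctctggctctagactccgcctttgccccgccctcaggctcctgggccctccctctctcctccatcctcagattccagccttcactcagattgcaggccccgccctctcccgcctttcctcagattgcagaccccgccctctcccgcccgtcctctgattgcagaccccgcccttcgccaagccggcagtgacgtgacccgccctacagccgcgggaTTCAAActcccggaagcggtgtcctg
Nusap1: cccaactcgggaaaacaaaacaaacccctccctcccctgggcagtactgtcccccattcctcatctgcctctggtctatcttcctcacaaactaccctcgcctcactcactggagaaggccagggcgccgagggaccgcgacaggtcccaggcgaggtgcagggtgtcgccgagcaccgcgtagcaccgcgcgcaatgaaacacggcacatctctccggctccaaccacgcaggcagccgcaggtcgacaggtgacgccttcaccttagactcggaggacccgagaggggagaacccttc

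Extracellular matrix genes were the next group to rise, and more so in the cardiac lobe. Of 11 fibrillar collagen genes 7 rose and none fell, with a median of 0.64. The medians by region were 0.45 in the medial lobe, 1.24 in the cardiac lobe and 0.34 in the whole lung. Leaving out the day 7 cardiac lobe array, 4 rose. Those 4 were the chains of collagen I and III and Col5a2. Col1a1 stood at 9.53, 12.04 and 10.44 in the medial lobe, cardiac lobe and whole lung at day 7, against 8.06, 8.75 and 8.84 at day 0. All 3 day 7 arrays were above all day 0 arrays, by 2.12 ± 0.40 or 4.36-fold (adjusted p = 0.00615). Without the day 7 cardiac lobe array the difference was 1.43 (adjusted p = 0.011). Col1a2 rose by 1.90 ± 0.39 with that array and 1.20 without it, Col3a1 by 1.88 ± 0.38 and 1.16, and Col5a2, which shapes the width of collagen I fibrils, by 1.52 ± 0.28 and 1.02. Col5a1 rose by 0.81 ± 0.21, and without the array lay at 0.42 (adjusted p = 0.0634). Of 24 other collagen genes 5 rose, and the 3 that also rose without the array were the collagen VI chains Col6a1, Col6a2 and Col6a3.

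Elastic fibre genes followed, with 8 of 18 higher and 1 lower (median 0.46). Leaving out the day 7 cardiac lobe array, 4 were higher, and against sham 2 were higher and 2 lower. Eln, which encodes elastin, stood at 9.13, 11.23 and 10.25 at day 7, against 8.18, 8.26 and 8.46 at day 0. The day 0 arrays lay close together and every day 7 array lay above them, by 1.91 ± 0.35 or 3.75-fold (adjusted p = 0.00507), and by 1.39 without the cardiac lobe array (adjusted p = 0.0186). Mfap5, a microfibril glycoprotein, rose by 0.94 ± 0.18, and Ltbp2, a microfibril-bound protein, by 0.87 ± 0.15. Both also rose without that array, by 0.78 and 0.67. Emilin1, an elastin-associated glycoprotein, rose by 0.84 ± 0.24 with the array and was at 0.46 without it (adjusted p = 0.2). The gene of the related Emilin2 had 7.47, 9.58 and 7.83 at day 7, against 7.45, 7.54 and 7.13 at day 0, so that the cardiac lobe alone stood apart, and it did not pass (adjusted p = 0.139).

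Enzymes and chaperones that process these fibres rose in 10 of 23 cases and fell in none (median 0.35). Leaving out the day 7 cardiac lobe array, 7 rose, and against sham 6 were higher and 2 lower. Loxl1, a crosslinking enzyme of elastin, rose in every region, with 9.27, 9.79 and 9.44 at day 7, against 8.24, 8.54 and 8.79 at day 0. The difference was 0.98 ± 0.11 (adjusted p = 0.000432), and 0.87 without the cardiac lobe array (adjusted p = 0.00174). Lox, the founding lysyl oxidase, rose by 1.13 ± 0.24, and without that array was at 0.79 (adjusted p = 0.0618). P4ha3, a collagen prolyl hydroxylase subunit, rose by 0.85 ± 0.21, and the collagen modifier Crtap by 0.77 ± 0.15. The collagen chaperone Serpinh1 (Hsp47) rose by 0.76 ± 0.12 against day 0, and differed from sham by 0.13 (adjusted p = 0.573). P3h2 and Pcolce2 had lower values at day 7 (-0.61 ± 0.20 and -0.40 ± 0.14) and did not pass.

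Matricellular and matrix-remodelling genes held some of the highest single values. Timp1, an inhibitor of matrix metalloproteinases, stood at 10.42, 11.27 and 10.59 at day 7, against 7.59, 7.80 and 7.93 at day 0 (2.99 ± 0.23, 7.95-fold, adjusted p = 1.33e-05). The 3 regions moved alike and the groups were far apart, also without the cardiac lobe array (2.79) and against sham (2.87). Tnc, the gene of tenascin C, a glycoprotein of growing and injured tissue, was at 7.58, 9.08 and 8.04 at day 7, against 5.48, 5.88 and 6.15 at day 0 (2.40 ± 0.31, adjusted p = 0.00078). The hyaluronan-binding proteoglycan Vcan rose by 1.60 ± 0.28, and Has1, a hyaluronan synthase, by 1.70 ± 0.22. Has1 differed in pattern, with the day 7 cardiac lobe lowest of the day 7 arrays at 7.93, against 8.91 in the medial lobe and 9.17 in the whole lung, and with 6.80, 6.66 and 7.44 at day 0. In all, 4 of 23 matricellular genes rose (2 without the cardiac lobe array), the others being fibronectin (Fn1, 1.03 ± 0.22) and Ccn4 (0.69 ± 0.16). Without that array these lay at 0.85 and 0.42 and did not pass.

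Of 23 metalloproteinase and inhibitor genes 6 rose and 1 fell, and 4 rose and none fell without the day 7 cardiac lobe array. Mmp14, the membrane-bound collagenase, rose by 1.17 ± 0.20, Mmp2, the gelatinase it activates, by 1.02 ± 0.16, and Mmp19 by 1.30 ± 0.27, and all 3 also rose without that array. Mmp12, the macrophage elastase, was at 7.06, 10.28 and 9.40 at day 7, against 6.43, 6.56 and 5.89 at day 0. The medial lobe was only a little above day 0 and the other regions far above it, so that the difference of 2.62 ± 0.72 passed (adjusted p = 0.0355) and the 2.09 without the cardiac lobe array did not (adjusted p = 0.191). None of 24 smooth muscle and myofibroblast genes passed in either direction with or without that array, with a median of -0.01. Basement membrane genes gave 3 higher of 26, namely Col4a1, Lama1 and Col18a1. None passed without the array, with 0.54, 0.34 and 0.44.

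Among genes of alveolar and lipid-storing fibroblasts 3 of 16 fell and none rose, 2 fell without the day 7 cardiac lobe array, and the largest fall of all named genes was in this group. Lrat, which stores retinol as esters, stood at 7.38, 6.71 and 7.22 at day 7, against 8.61, 8.87 and 9.97 at day 0. Every day 7 array was below every day 0 array, by -2.05 ± 0.33 or 4.13-fold (adjusted p = 0.00228), with -1.82 without the cardiac lobe array and -1.98 against sham. In the wider retinoid list of 27 genes, 2 rose and 3 fell, or 1 and 1 without that array. The retinaldehyde reductase Dhrs3 (-0.52 ± 0.14) and the retinoic acid receptor gene Rarb (-0.80 ± 0.18) fell with Lrat. The retinoic acid-forming dehydrogenases Aldh1a2 (0.45 ± 0.11) and Aldh1a3 (0.55 ± 0.15) rose. With the day 7 cardiac lobe array left out, Aldh1a2 was at 0.54 and passed, whereas Dhrs3 (-0.45), Rarb (-0.79) and Aldh1a3 (0.30) did not. Against sham Rarb lay at -0.14 (adjusted p = 0.715).

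The mesothelium, the cell layer on the lung surface, was represented by 17 genes, of which 7 rose and none fell (median 0.33). The day 7 cardiac lobe array made little difference, with 6 higher without it, and 7 were higher against sham. Prg4, the lubricating glycoprotein lubricin, stood at 10.17, 9.55 and 9.92 at day 7, against 5.44, 5.46 and 6.65 at day 0 (4.03 ± 0.44, 16.3-fold, adjusted p = 0.00039). The cardiac lobe was the lowest of the day 7 arrays, and without it the difference was 4.07. Wt1, a transcription factor of mesothelium, was at 8.59, 9.57 and 9.27 at day 7, against 7.77, 7.76 and 8.47 at day 0 (1.14 ± 0.16, adjusted p = 0.00101). Dmkn rose by 0.81 ± 0.13, Nkain4 by 0.57 ± 0.14 and the surface antigen mesothelin (Msln) by 0.52 ± 0.15. The mucin Muc16, at 0.51 ± 0.20, did not pass (adjusted p = 0.112), and Gpm6a was level in the medial lobe and whole lung and lower in the cardiac lobe (-0.35 ± 0.18).

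**Figure D2:**
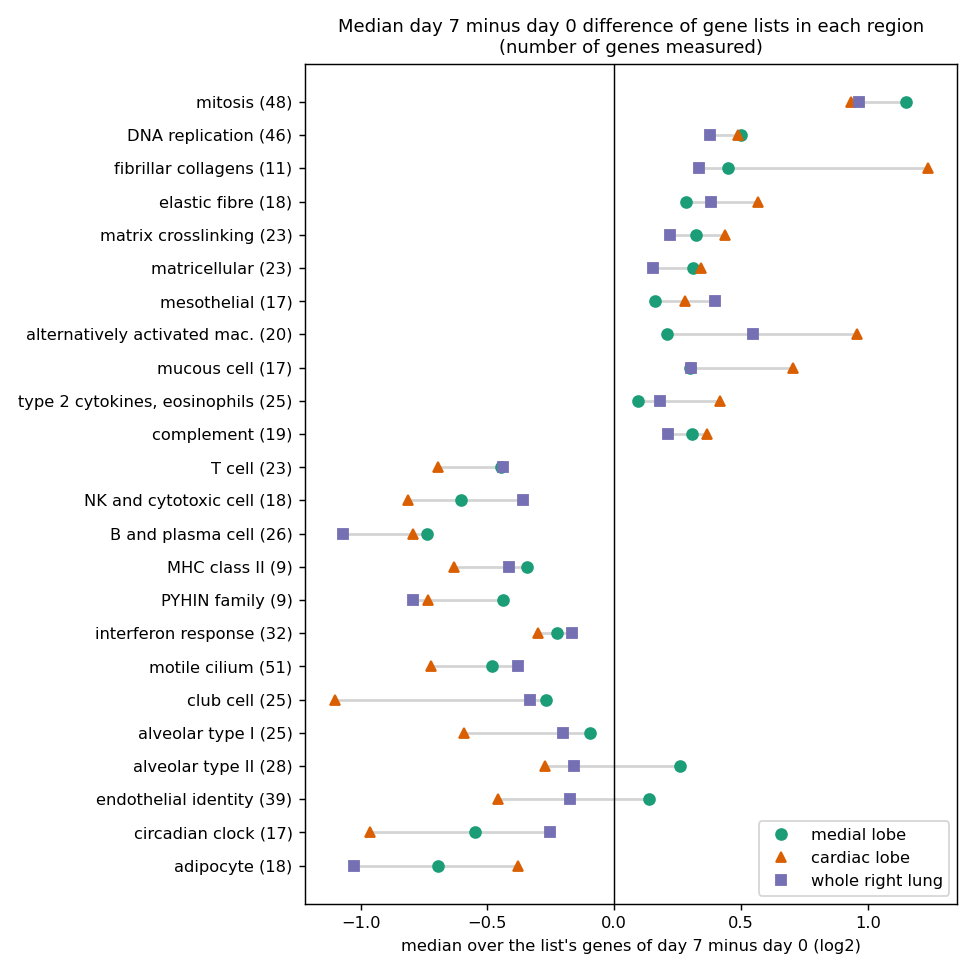
Median of day 7 minus day 0 (log2) over the genes of 24 lists, separately for the medial lobe, the cardiac lobe and the whole right lung; grey lines span the regions. Mitosis medians lay between 0.93 and 1.15, while fibrillar collagens reached 1.24 in the cardiac lobe against 0.45 and 0.34 in the other regions, and club cell genes -1.10 against -0.27 and -0.33.

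Inflammatory genes rose unevenly between regions. The acute phase protein Saa3 had the largest rise of the named genes, with 9.81, 12.39 and 11.31 at day 7, against 6.95, 6.44 and 6.92 at day 0 (4.41 ± 0.56, 21.2-fold, adjusted p = 0.00069). All day 7 arrays were well above day 0, with the medial lobe lowest, and the difference without the cardiac lobe array was 3.78 (adjusted p = 0.00386). Serum amyloid genes are close relatives, so the copy measured is uncertain. Of 17 acute phase genes it rose with Steap4, an iron and copper reductase (1.22 ± 0.21), and 4 rose without that array. Lcn2, an iron-binding acute phase protein, at 0.39 ± 0.12, did not pass with every array (adjusted p = 0.0522) and did without the cardiac lobe array (0.49, adjusted p = 0.0491). None of 22 neutrophil genes passed with all arrays, and 1, Lcn2, without that array.

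The type 2 cytokine and eosinophil list had 5 higher and 1 lower of 25 genes, and 2 higher without the day 7 cardiac lobe array. Those 2 were Il33, an alarmin released by damaged or stretched cells, and Il13, the cytokine of type 2 lymphocytes. Il33 stood at 10.76, 11.06 and 10.40 at day 7, against 9.84, 10.15 and 9.99 at day 0 (0.75 ± 0.15, adjusted p = 0.00982). Il13 stood at 5.59, 6.88 and 5.78 at day 7, against 5.17, 5.25 and 5.31 at day 0 (0.84 ± 0.21, adjusted p = 0.0226), and at 0.45 without the array (adjusted p = 0.0375). Both were above every day 0 array in all 3 regions. Ccl24, a chemokine that draws eosinophils, was at 5.40, 10.81 and 7.70 at day 7, against 5.04, 4.98 and 5.22 at day 0. The medial lobe was close to day 0 and the cardiac lobe far above it. The fitted 2.89 ± 0.84 passed (adjusted p = 0.0448), the 1.43 without the cardiac lobe array did not (adjusted p = 0.223), nor did the 2.58 against sham (adjusted p = 0.0992). Il4, another type 2 cytokine, was higher in the cardiac lobe at 7.35, against 5.06 there at day 0, but not in the medial lobe, at 5.08 at day 7 against 5.25 at day 0, and did not pass (adjusted p = 0.116).

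Macrophage genes of the alternatively activated state showed the same unevenness, with 7 higher and 1 lower of 20 (median 0.58), but 2 higher without the day 7 cardiac lobe array. The medians were 0.21 in the medial lobe, 0.96 in the cardiac lobe and 0.55 in the whole lung. Arg1, the arginase of these cells, was at 6.35, 10.94 and 9.53 at day 7, against 5.52, 5.75 and 5.79 at day 0 (3.25 ± 0.82, adjusted p = 0.0254), and the 2.17 without the array did not pass (adjusted p = 0.152). The chitinase-like Chil4, which has near-identical relatives, behaved alike (2.81 ± 0.67, and 2.14 without the array, adjusted p = 0.123). Retnla, a secreted protein of the same state, rose more evenly, with 12.30, 12.86 and 12.48 at day 7, against 10.80, 11.62 and 10.96 at day 0 (1.42 ± 0.32, adjusted p = 0.0145), and against sham by 2.42 (adjusted p = 0.000611). Without the array it lay at 1.36 and did not pass (adjusted p = 0.0605). The growth factor Igf1, counted here and in the insulin-like growth factor list, was at 8.41, 9.61 and 9.22 at day 7, against 7.63, 7.92 and 7.93 at day 0 (1.25 ± 0.14, adjusted p = 0.000432). It was among the 2 that rose without the array (1.08, adjusted p = 0.00153).

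Monocyte chemokines and receptors gave 5 higher and 1 lower of 20, with Vcan and Fn1 counted here too, and 1 higher and 1 lower without the day 7 cardiac lobe array. Fn1 then lay at 0.85. Ccl2, which recruits monocytes, was at 6.26, 7.89 and 6.96 at day 7, against 5.73, 5.67 and 5.73 at day 0 (1.33 ± 0.36, adjusted p = 0.033), and Ccl9 rose by 1.22 ± 0.31. Neither passed without the day 7 cardiac lobe array (adjusted p = 0.199 and adjusted p = 0.159). The complement genes C1qa, C1qb and C1qc, made by macrophages, rose by 1.11 ± 0.28, 0.78 ± 0.22 and 1.16 ± 0.33, and none of them passed without it, at 0.60, 0.50 and 0.59. Cfb, the complement factor B of the alternative pathway, was called with and without that array, with 10.70, 10.54 and 10.97 at day 7, against 9.27, 8.92 and 9.72 at day 0 (1.43 ± 0.16, adjusted p = 0.00039, and 1.37 without the array). In all, 5 of 19 complement genes rose, and 1 without the array. Resident alveolar macrophage genes fell in 6 of 20 cases and 1, Ctsk, rose (1.18 ± 0.30), with a median of -0.11. Of the 20, 7 had a higher value at day 7, and the highest difference, 1.24, did not pass. Without the array none rose and only Fabp1, a fatty acid carrier, fell (-1.30 ± 0.26, and -0.94). Against sham 2 were higher and 1 lower (median -0.02). The mean of the 3 alveolar macrophage markers was 10.01 in the day 7 cardiac lobe, 8.99 in the medial lobe and 9.06 in the whole lung at day 7, against 8.77 to 9.04 at day 0. Of these markers 1 was called, and it was lower, and the cardiac lobe median of the 20 listed genes was -0.08. What part the higher marker mean had in the cardiac lobe results was not tested.

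Mucous cell genes were higher in 4 of 17 cases and lower in none, with 1 higher without the day 7 cardiac lobe array. Muc5ac, the gel-forming mucin of goblet cells, was at 7.47, 9.09 and 8.51 at day 7, against 6.36, 6.52 and 6.83 at day 0 (1.79 ± 0.34, adjusted p = 0.00669), and the 1.40 without the day 7 cardiac lobe array passed too (adjusted p = 0.0354). Clca1, a secreted protein of mucous cells, was at 11.39, 11.73 and 11.76 at day 7, against 6.62, 9.13 and 9.58 at day 0. The day 7 arrays were alike and the day 0 arrays ranged widely, with the medial lobe far below the others (3.18 ± 0.83, adjusted p = 0.0294). It lay at 3.27 without the day 7 cardiac lobe array and did not pass (adjusted p = 0.0878). Against sham Clca1 was higher by 6.01 (adjusted p = 0.000964). The mucin-folding protein Agr2 and the trefoil peptide Tff2 did not pass against day 0 (1.29 ± 0.51 and 1.11 ± 0.40) and did against sham (2.62 and 1.73, adjusted p = 0.00848 and adjusted p = 0.0231).

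**Figure D3:**
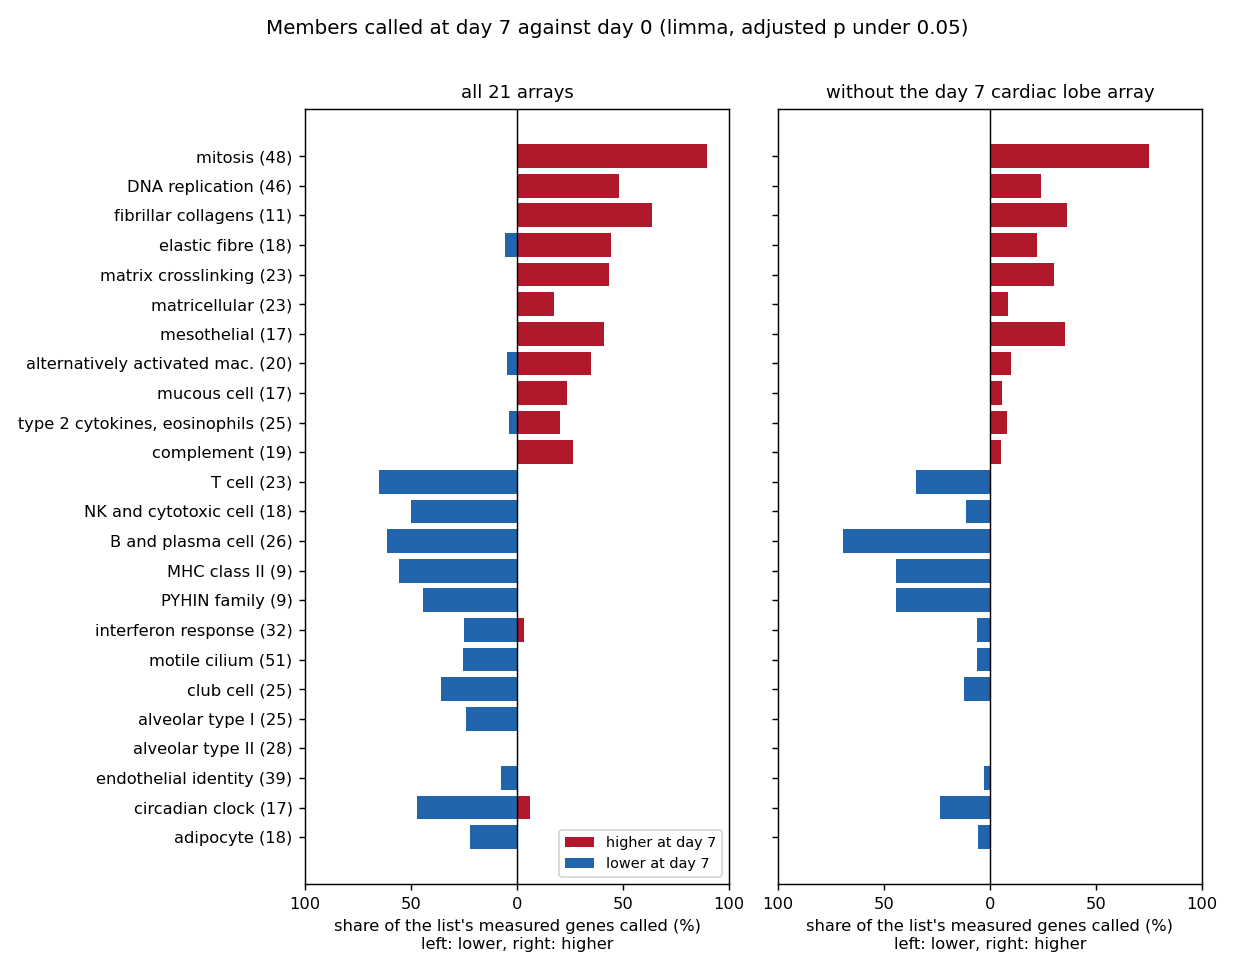
Share of the measured genes of 24 lists that were called at day 7 against day 0, with higher genes to the right and lower genes to the left, for all 21 arrays (left panel) and without the day 7 cardiac lobe array (right panel). The mitosis, mesothelial, B cell, MHC class II and PYHIN bars stay long in both panels, and those of complement, mucous cell, motile cilium and alveolar type I genes are short or missing in the right one.

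Lymphocyte genes were lower at day 7 than at day 0. The B and plasma cell list held 26 genes, of which 16 fell and none rose (median -0.78), and 18 fell when the day 7 cardiac lobe array was left out (median -0.93). Ms4a1 (CD20), a B cell surface protein, was at 7.37, 7.15 and 7.22 at day 7, against 9.07, 9.15 and 9.28 at day 0 (-1.92 ± 0.23, 3.78-fold lower, adjusted p = 0.000499). The arrays of each day lay within a narrow range and far from those of the other day. Cd79a, a chain of the B cell receptor, was at 7.90, 8.08 and 8.33 at day 7, against 9.27, 9.59 and 9.72 at day 0 (-1.43 ± 0.20, adjusted p = 0.00108). The IgM receptor Fcmr fell by 1.61 ± 0.21, the transcription factor Spib by 1.45 ± 0.27 and the signalling scaffold Bank1 by 1.37 ± 0.18. Jchain, which links secreted antibodies and marks plasma cells, was higher in both lobes and not in the whole lung, with 6.77, 10.34 and 7.74 at day 7, against 6.38, 7.31 and 7.87 at day 0, and did not pass (adjusted p = 0.224).

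Set against sham, the B cell differences were smaller. Of the 26 genes 8 were lower, with a median of -0.33, and Ms4a1 was lower by -0.97 (adjusted p = 0.0242) and Cd79a by -0.86 (adjusted p = 0.0231). The median of the list relative to day 0 was -0.65 at day 3, -0.78 at day 7, -0.76 at day 14, -0.19 at day 28 and -0.65 at day 56 after pneumonectomy, and -0.47 at day 56 after sham surgery. Lymph node markers, 3 genes of follicles and their vessels, averaged 5.94 to 6.72 on the day 7 arrays and 5.83 to 7.95 on the day 0 arrays, with the day 0 whole lung highest. One call was made among them, for a marker lower at day 7. Of the 3, Glycam1 of lymph node vessels was at 4.90, 4.74 and 4.81 at day 7, against 4.53, 4.49 and 7.01 at day 0, and Cxcl13, the B cell chemoattractant, at 8.09, 10.83 and 8.72 at day 7, against 7.64, 8.11 and 10.22 at day 0. The part of lymphoid tissue taken with a region was not tested, and Ms4a1 and Cd79a were lower in each of the 3 regions.

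T cell genes fell in 15 of 23 cases (median -0.56), in 8 without the day 7 cardiac lobe array (median -0.55), and in 1 against sham (median -0.12). Cd3g, a chain of the T cell receptor complex, was at 6.16, 6.14 and 6.14 at day 7, against 7.59, 8.33 and 7.30 at day 0 (-1.59 ± 0.17, adjusted p = 0.00039). It was also lower against sham (-0.71, adjusted p = 0.0295). Its partners Cd3e (-0.99 ± 0.14) and Cd3d (-0.89 ± 0.17) and the homing receptor Ccr7 (-0.88 ± 0.19) fell against day 0, and differed from sham by -0.24, -0.34 and -0.08, none of which passed. Cd8a, at -0.49 ± 0.22, did not pass against day 0 (adjusted p = 0.16). Of 18 natural killer and cytotoxic cell genes 9 fell, 2 without the cardiac lobe array and none against sham. The activating receptor Ncr1 fell by 1.41 ± 0.29 and the chemokine Ccl5 by 1.07 ± 0.21. Without the cardiac lobe array Ncr1 lay at -1.13 and did not pass (adjusted p = 0.058). Against sham both lay at -0.33 (adjusted p = 0.56 and adjusted p = 0.413).

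MHC class II genes, which present antigen to T cells, fell in 5 of 9 cases, and in 4 without the day 7 cardiac lobe array. The 3 largest falls were in H2-Ob, H2-Oa and H2-Eb2. H2-Ob was at 7.78, 7.64 and 8.0 at day 7, against 9.01, 9.27 and 9.14 at day 0 (-1.33 ± 0.17, adjusted p = 0.000654). Its partner chain H2-Oa was at 6.50, 6.93 and 6.33 at day 7, against 7.54, 7.85 and 7.83 at day 0 (-1.15 ± 0.14, adjusted p = 0.000499). Both encode the DO molecule that tunes peptide loading and is abundant in B cells. The classical chains H2-Ab1 (-0.15 ± 0.14) and H2-Eb1 (-0.18 ± 0.13) did not pass, and neither did H2-Aa (-0.56 ± 0.19, adjusted p = 0.0754). Against sham H2-Ob was lower by -0.71 (adjusted p = 0.0248) and H2-Oa lay at -0.40 (adjusted p = 0.123).

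The PYHIN family of interferon-inducible DNA sensors fell in 4 of 9 cases, with and without the day 7 cardiac lobe array. These genes lie in a cluster of close relatives, so the copy is uncertain. Ifi209 was at 6.97, 6.42 and 6.30 at day 7, against 8.14, 8.33 and 8.06 at day 0 (-1.61 ± 0.25, adjusted p = 0.00204), and Ifi213 at 5.72, 5.07 and 5.07 at day 7, against 6.46, 6.87 and 6.40 at day 0 (-1.29 ± 0.18, adjusted p = 0.00101). Ifi208 fell by 1.58 ± 0.27 and Ifi214 by 0.91 ± 0.12. Against sham 2 of the 9 were lower, Ifi209 lay at -0.68 and did not pass (adjusted p = 0.157), and Ifi214 lay at -0.03. The list median was -0.62 against day 0 and -0.03 against sham, and sham itself lay at -0.52 relative to day 0. The wider interferon list had 8 lower and 1 higher of 32 genes, 2 lower without the array, and 2 higher and none lower against sham. The chemokine Cxcl9 was at 6.24, 7.89 and 6.39 at day 7, against 8.01, 8.37 and 7.55 at day 0 (-1.14 ± 0.28, adjusted p = 0.0239), and against sham at 0.60 (adjusted p = 0.257). Ifit3, an antiviral protein, fell by 0.86 ± 0.16 against day 0 and lay at -0.38 against sham (adjusted p = 0.198).

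**Figure D4:**
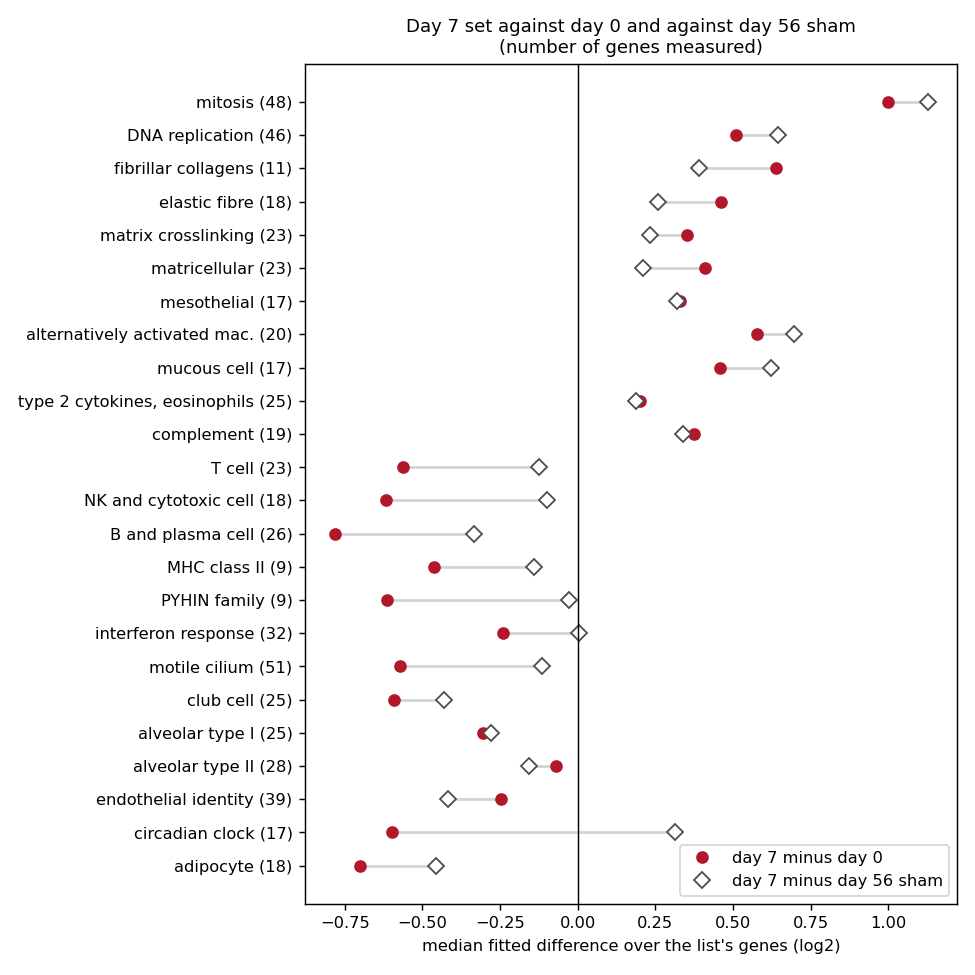
Median fitted difference (log2) of day 7 over the genes of 24 lists, against day 0 (filled circles) and against day 56 sham (open diamonds); both use the same day 7 arrays. Mitosis medians were 1.0 and 1.13, T cell medians -0.56 and -0.12, and the circadian clock medians -0.60 and 0.31.

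Epithelial genes differed by cell type. None of 28 alveolar type II genes passed in either direction, with or without the day 7 cardiac lobe array, and the median was -0.07. Sftpc, the surfactant protein of these cells, stood at 13.40, 13.41 and 13.38 at day 7, against 13.30, 13.40 and 13.43 at day 0. Such levels lie close to the highest value of the whole table, 14.06, and whether a change is fully measured there was not tested. Lyz1, at -0.33 ± 0.19, and the lamellar body protein gene Lamp3, at -0.30 ± 0.17, did not pass. Of 25 alveolar type I genes 6 fell and none rose (median -0.31), none without the cardiac lobe array, and 5 were lower against sham. Rtkn2 was at 9.68, 8.78 and 9.33 at day 7, against 10.15, 10.37 and 9.88 at day 0 (-0.87 ± 0.18, adjusted p = 0.0117), with -0.62 without the array (adjusted p = 0.0591) and -0.92 against sham (adjusted p = 0.01). The anchoring protein Akap5 (-0.56 ± 0.15), the sodium channel subunit Scnn1g (-0.56 ± 0.15) and Lmo7 (-0.54 ± 0.13) fell, and did not pass without the array (adjusted p = 0.207, adjusted p = 0.187 and adjusted p = 0.0668). Gprc5a, at 12.29, 10.84 and 11.45 at day 7, against 12.35, 12.22 and 11.95 at day 0, did not pass, and most of its drop was in the cardiac lobe.

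Airway genes were lower, again most of all in the cardiac lobe. Of 25 club cell genes 9 fell (median -0.59), with medians of -0.27 in the medial lobe, -1.10 in the cardiac lobe and -0.33 in the whole lung. Leaving out the day 7 cardiac lobe array, 3 fell (median -0.24), and 4 were lower against sham. Cyp2b10, a detoxifying P450 enzyme, was at 11.92, 10.67 and 11.50 at day 7, against 12.58, 12.45 and 12.24 at day 0 (-1.06 ± 0.19, adjusted p = 0.00466), and -0.74 without the array (adjusted p = 0.00853). The sulfotransferase Sult1d1 was at 9.15, 6.28 and 9.51 at day 7, against 10.12, 9.0 and 10.50 at day 0 (-1.56 ± 0.41, adjusted p = 0.029). All 3 regions were lower than at day 0, and the -0.90 without the array did not pass (adjusted p = 0.146). The paraoxonase Pon1 fell by 1.06 ± 0.31 and the glutathione transferase Gsta3 by 1.02 ± 0.26. Without the array they lay at -0.55 and -0.62 and did not pass.

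Motile cilium genes had lower values at day 7 in all 51 cases, and 13 of them fell (median -0.57). Without the day 7 cardiac lobe array 3 fell (median -0.31), and none was lower against sham (median -0.11), where the list also holds no higher call. Dnah6, a dynein heavy chain of the ciliary beat, was at 8.05, 6.90 and 8.77 at day 7, against 9.27, 8.65 and 9.22 at day 0 (-1.14 ± 0.27, adjusted p = 0.0202). The day 7 whole lung lay above the lowest day 0 array, so the groups overlapped, and the -0.75 without the array did not pass (adjusted p = 0.105). Dnah11 fell by 0.70 ± 0.13 and Dnah7a by 0.63 ± 0.12, and both also fell without the array (adjusted p = 0.0374 and adjusted p = 0.0306). Dnah5 fell by 0.75 ± 0.17 against day 0 and lay at 0.02 against sham. Its -0.60 without the array did not pass (adjusted p = 0.0998). The radial spoke gene Rsph4a was at 9.44, 6.92 and 9.24 at day 7, against 10.21, 9.44 and 9.96 at day 0, and did not pass (-1.33 ± 0.49, adjusted p = 0.0949). The mean of the 4 ciliated markers was 8.40, 7.86 and 8.53 at day 7, against 8.31 to 8.83 over the day 0 arrays, and that of the 4 club cell markers 12.78, 12.23 and 12.81 at day 7, against 12.71 to 12.94 at day 0. How much airway each piece of lung held was not tested.

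Of 42 transcription factors of lung development 1 rose, Sox9, and 1 fell, Foxa2, beside 3.73% higher and 4.97% lower over all genes. Sox9, a factor of distal buds and cartilage, was at 6.64, 7.15 and 6.51 at day 7, against 6.04, 6.08 and 6.31 at day 0 (0.62 ± 0.16, adjusted p = 0.0259). Foxa2, a factor of lung epithelium, was at 8.28, 7.74 and 7.72 at day 7, against 8.48, 8.55 and 8.18 at day 0 (-0.49 ± 0.10, adjusted p = 0.0112). Neither passed without the day 7 cardiac lobe array (adjusted p = 0.145 and adjusted p = 0.0616). Beside the same shares over all genes, none of 16 airway basal and stem cell genes passed. The list of transitional alveolar epithelium had 2 higher and 1 lower of 16, or 1 and 1 without the array. Clu, a secreted chaperone in it, rose by 0.64 ± 0.10 and by 0.48 without the array.

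Growth factor lists held a few calls in both directions, beside 3.73% higher and 4.97% lower over all genes. Those shares were 1.43% and 1.22% without the day 7 cardiac lobe array. Of 17 insulin-like growth factor genes 3 rose, led by Igf1, and 3 fell, namely Igf2 (-0.48 ± 0.12) and the receptors Igf1r (-0.43 ± 0.12) and Insr (-0.52 ± 0.16). Leaving out the day 7 cardiac lobe array, 3 were higher and none lower, with Igf2 at -0.34, Igf1r at -0.27 and Insr at -0.28. Pappa, a protease that frees insulin-like growth factors from their binding proteins, rose by 0.74 ± 0.22 and did not pass without it (adjusted p = 0.278). Of 40 TGF-beta and BMP genes 4 rose and none fell, and 1 rose without the array. Fstl1, a secreted protein that binds ligands of this family, was at 10.43, 11.33 and 10.62 at day 7, against 9.64, 9.75 and 9.93 at day 0 (1.02 ± 0.16, adjusted p = 0.00194, and 0.89 without the array). The activin subunit Inhba rose by 0.54 ± 0.13, and its 0.46 without the array did not pass (adjusted p = 0.105). In the WNT list of 48 genes 5 rose and 4 fell, and none rose and 2 fell without the array. The ligand Wnt2b was at 6.28, 6.80 and 7.01 at day 7, against 7.17, 7.57 and 7.91 at day 0 (-0.85 ± 0.16, adjusted p = 0.00652, and -0.86 without the array), and the ligand Wnt5a rose by 0.57 ± 0.16 and lay at 0.54 without the array (adjusted p = 0.147).

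Fibroblast growth factor genes gave 1 higher and 3 lower of 21, among them the ligands Fgf18 (-0.60 ± 0.16) and Fgf1 (-0.41 ± 0.12), and none passed without the day 7 cardiac lobe array, where these lay at -0.39 and -0.25. Fgf7, a growth factor of lung epithelium, was at 7.18, 6.43 and 7.44 at day 7, against 7.16, 7.81 and 7.49 at day 0, and did not pass (adjusted p = 0.24). In the EGF receptor and HGF list 2 rose and 1 fell of 19, or 1 and none without the array. The hepatocyte growth factor gene Hgf did not pass (-0.47 ± 0.20, adjusted p = 0.132), and Mst1r, the receptor of a related factor, rose by 0.57 ± 0.10 and by 0.51 without the array (adjusted p = 0.0264). In the list of 18 genes with imprinted growth roles, 5 were called higher and 1 lower, or 2 and none without the array. Mest was at 7.83, 7.49 and 7.13 at day 7, against 6.19, 6.47 and 6.17 at day 0 (1.21 ± 0.18, adjusted p = 0.0017), and Grb10, an adaptor that damps insulin receptor signals, rose by 0.65 ± 0.12.

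Vessel genes were mostly level or lower. Of 39 endothelial identity genes 3 fell and none rose (median -0.25), beside 4.97% lower over all genes. Only 1 fell without the day 7 cardiac lobe array (median -0.07), and 11 were lower against sham. The kinase Bmx was at 6.80, 5.85 and 6.38 at day 7, against 7.53, 7.27 and 7.12 at day 0 (-0.96 ± 0.19, adjusted p = 0.00732, and -0.68 without the day 7 cardiac lobe array, adjusted p = 0.0236). Of 33 genes of VEGF, angiopoietin and Notch signals 1 rose and 4 fell, 1 and 1 did so without the array, and 11 were lower against sham. Angpt2, which loosens contacts of vessels, was at 6.24, 6.41 and 5.60 at day 7, against 6.77, 7.23 and 6.76 at day 0 (-0.83 ± 0.13, adjusted p = 0.00208), with -0.82 without the array and -1.02 against sham. Vegfa, the main growth signal of vessels, fell by 0.41 ± 0.11, and did not pass without the array (adjusted p = 0.149). The netrin receptor Unc5b, at 0.87 ± 0.16, was the 1 that rose. By region the endothelial median was 0.14 in the medial lobe, -0.46 in the cardiac lobe and -0.17 in the whole lung.

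Heat shock chaperone genes rose in 7 of 23 cases and fell in none, and 6 rose without the day 7 cardiac lobe array. Hspa1a, the inducible Hsp70, which has a near-identical copy, was at 10.19, 9.68 and 8.78 at day 7, against 7.10, 7.27 and 7.54 at day 0 (2.25 ± 0.29, 4.74-fold, adjusted p = 0.00078). It was higher on every day 7 array, most in the medial lobe. It was also higher than at day 3 (1.78 ± 0.29, adjusted p = 0.036), where the 1.71 without the day 7 cardiac lobe array did not pass (adjusted p = 0.0509). Its co-chaperone Dnajb1 rose by 0.84 ± 0.19. Against sham the list split, with 2 higher and 3 lower. Hspa1a (1.73, adjusted p = 0.00367) and Dnajb1 (0.89, adjusted p = 0.0122) were higher, and Hsph1, which rose by 0.76 ± 0.13 against day 0, was lower by -0.57 (adjusted p = 0.0248). The heat shock element GAANNTTC was found in the promoters of 10 of 20 list genes that have one (50%), against 9.0% of all genes. Among the 7 genes that rose, 6 had a promoter and 4 held the element (66.7%). Of the 16 that did not rise, 14 had one and 6 held it (42.9%), so the element was common in the list whether or not a gene rose. The Hspa1a promoter (chr17:34972107-34972406, minus strand, GRCm38.p6) is printed because this gene rose most. The element, in capitals, begins 104 bases before the start.
Hspa1a: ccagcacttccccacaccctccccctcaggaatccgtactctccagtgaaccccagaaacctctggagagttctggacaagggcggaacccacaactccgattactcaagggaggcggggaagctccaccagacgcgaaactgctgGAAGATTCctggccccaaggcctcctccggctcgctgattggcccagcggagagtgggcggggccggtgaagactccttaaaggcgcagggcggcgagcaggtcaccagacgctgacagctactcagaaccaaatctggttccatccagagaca

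Circadian clock genes were lower against day 0 in 8 of 17 cases and higher in 1, and against sham 6 were higher and 1 lower. Their medians were -0.60 and 0.31. With the day 7 cardiac lobe array left out, 4 were lower than at day 0 and none higher (median -0.38). Dbp, a clock output factor, was at 9.67, 9.06 and 9.63 at day 7, against 10.24, 10.26 and 10.23 at day 0 (-0.79 ± 0.22, adjusted p = 0.0339), but above sham by 1.74 (adjusted p = 0.000474). Per2, a clock repressor, fell by 0.78 ± 0.18 against day 0 and was above sham by 0.98 (adjusted p = 0.0071). Dbp and Per2 did not pass without that array (-0.57 and -0.62, adjusted p = 0.2 and adjusted p = 0.109). The clock repressors Nr1d1 (-0.89 ± 0.15) and Bhlhe41 (-1.07 ± 0.16) fell against day 0 and lay at 0.46 and 0.31 against sham. The labels give no time of day for the tissue, and its part in these values was not tested.

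Genes responsive to glucocorticoids and fasting fell in 6 of 24 cases and rose in 1, or 2 and 1 without the day 7 cardiac lobe array. Depp1, a target of FOXO factors, was at 7.97, 6.83 and 8.0 at day 7, against 9.93, 9.27 and 9.32 at day 0 (-1.91 ± 0.35, adjusted p = 0.00521, and -1.57 without the day 7 cardiac lobe array, adjusted p = 0.0306). Klf15, a glucocorticoid-induced factor, fell evenly, with 8.16, 7.87 and 7.91 at day 7, against 8.94, 8.83 and 8.71 at day 0 (-0.85 ± 0.10, adjusted p = 0.000568), and was also lower against sham (-0.57, adjusted p = 0.00594). Adipocyte genes had lower values in all 18 cases and 4 fell, of which the synuclein Sncg (-0.69 ± 0.11) also fell without the array. Adipoq, the fat cell hormone, was at 6.67, 6.49 and 7.23 at day 7, against 7.72, 6.82 and 8.99 at day 0, and did not pass (adjusted p = 0.17). The mean of the fat markers ran from 6.63 to 7.35 at day 7 and from 6.85 to 8.84 at day 0, highest in the day 0 whole lung, and the part of fat taken with the lung was not tested.

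Other genes among the 14 largest falls that belong to no group above were Klhl38 (-1.38 ± 0.25), Dapl1 (-1.33 ± 0.26) and the P450 gene Cyp3a13 (-1.31 ± 0.22). Cyp3a13 was at 6.28, 5.25 and 6.18 at day 7, against 7.45, 7.01 and 7.18 at day 0. All 3 fell also without the day 7 cardiac lobe array, which the choice of these 14 required. None of them passed against sham.

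**Figure D5:**
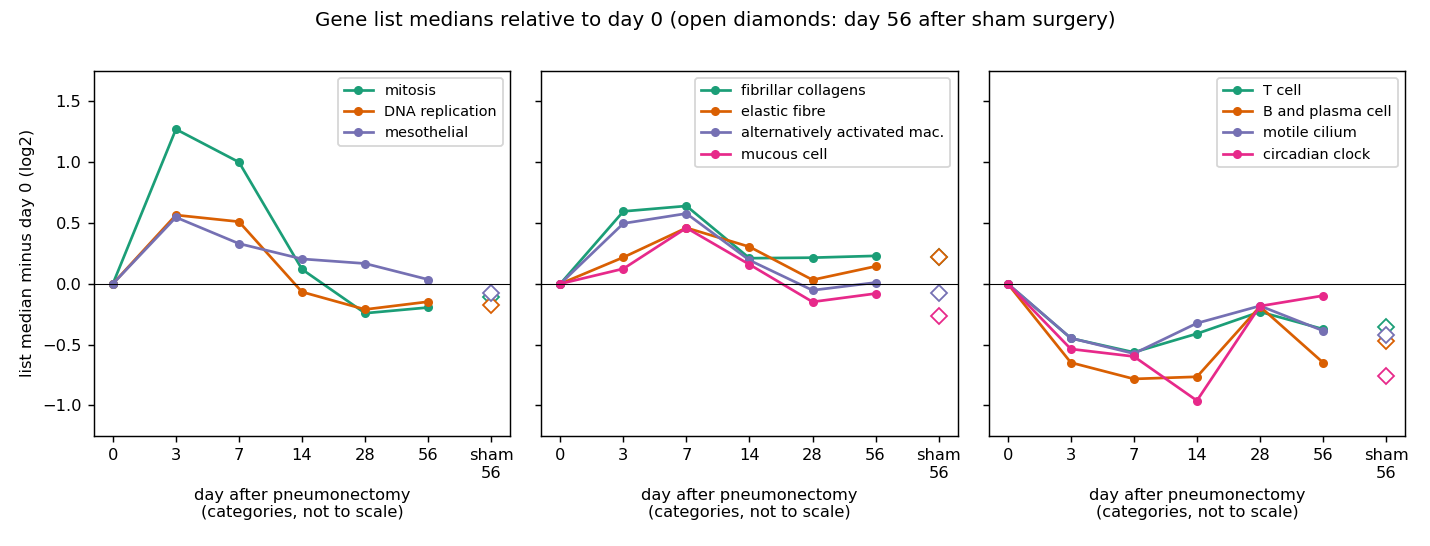
Median over the genes of 11 lists relative to day 0 (log2) at days 0, 3, 7, 14, 28 and 56 after pneumonectomy, with open diamonds for day 56 after sham surgery; days are spaced as categories. The mitosis median was 1.27 at day 3, 1.0 at day 7 and 0.12 at day 14, whereas the mucous cell median was 0.12 at day 3 and 0.46 at day 7.

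Day 7 differed from day 3 in few genes. At the same threshold 4 genes were higher and 9 lower at day 7 (0.0201% and 0.0451%, or 0.0652% of all genes), 2075 genes had an unadjusted p under 0.05, and without the day 7 cardiac lobe array 4 were higher and 41 lower. The transcription factor Osr1, known from mesenchymal progenitors, was lower at day 7 than at day 3 (-1.44 ± 0.19, adjusted p = 0.00955) and lay at 0.35 ± 0.19 against day 0 (adjusted p = 0.214). The glycosyltransferase B4galt6 (-1.13 ± 0.14), the lipid transporter Abca9 (-0.82 ± 0.13), the adhesion receptor Adgrd1 (-0.82 ± 0.12) and the RNA gene Mexis (-0.79 ± 0.12) were the next largest falls. The 4 higher genes were Hspa1a, Slc6a20a (0.86 ± 0.15), Cracr2a (0.65 ± 0.09) and Rab3c (0.45 ± 0.08). A member of the mitosis list passed in neither direction between day 7 and day 3.

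From day 7 to day 14, 43 genes were higher and 102 lower at day 14 (0.216% and 0.512%, or 0.727% of all genes), or 14 and 58 without the day 7 cardiac lobe array. Of the mitosis list 19 were lower and of the DNA replication list 14, and neither list had a higher gene. The 5 largest falls at day 14 were Hspa1a (-1.71 ± 0.29), the linker histone gene H1f1 (-1.50 ± 0.22), Ccna2 (-1.42 ± 0.25), Top2a (-1.41 ± 0.23) and Prc1 (-1.37 ± 0.23). The 5 largest rises were the clock activator Arntl (1.73 ± 0.14), Lrat (1.58 ± 0.33), Fabp1 (1.35 ± 0.26), Fam124b (1.35 ± 0.17) and Gdpd2 (0.97 ± 0.15). Hspa1a, Lrat and Fabp1 did not pass when the day 7 cardiac lobe array was left out (adjusted p = 0.0509, adjusted p = 0.177 and adjusted p = 0.114), and the other 7 did. No fibrillar collagen or elastic fibre gene passed between day 7 and day 14. The fibrillar collagen median relative to day 0 was 0.60 at day 3, 0.64 at day 7 and 0.21 at day 14, and 0.22 at day 56 after sham surgery.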

How the data were processed

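RNA of mouse right lung was measured on 21 Affymetrix gene arrays, 3 for each of 7 conditions. The values are log2 expression after RMA, which corrects the background, normalizes across arrays and sums the probes of a probe set, made by the authors per the submitters' processing notes. The sources used here state neither its version nor its settings. The labels' protocols describe a 3′ amplification kit. Of 35556 probe sets, 21789 carried 1 gene symbol, 1621 several and 12146 none. The 19938 named genes entered the tests, each by its probe set with the highest mean. Values ran from 2.98 to 14.06.

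limma 3.58.1 in R 4.3.3 fitted condition and region to all 21 arrays, with 12 residual degrees of freedom, and p-values were adjusted over all 19938 genes by Benjamini-Hochberg at 0.05. Without the day 7 cardiac lobe array 11 degrees of freedom remained. The smallest p of an exact two-sided permutation over 3 pairs would be 0.25. The labels carry no replicate numbers, so the region is what pairs the arrays. The gene lists were chosen with earlier results of these data known, and some genes are in several lists. Named were the 14 largest changes each way with 1 sign in every region that were also called without the day 7 cardiac lobe array, up to 5 called and 3 uncalled genes by size from each list described, the 5 largest each way against day 3 and day 14, and the markers. Other genes were named to account for a count, after their values were seen. The alternatives were other scalings, probe set rules, filters, priors, array weights, controls and left-out arrays. The fit was tested on simulated data. Correlations between arrays ran from 0.963 to 0.996.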

Additional observations from a re-analysis of the deposited data

Results flagged for a closer look

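The day 7 cardiac lobe array had an interquartile range of 3.545, the lowest of the 7 cardiac lobe arrays. Its gap to the next array, at 3.73, was 0.589 of the whole range, above Dixon's critical value for 7 samples. Such a gap arises by chance in about 1 of 20 groups. Medians, interquartile ranges and small RNA means were all searched for such gaps in each region, and this was the only one above that value. A single gap among so many searched is less rare than the rate for 1 group. In the fit with array weights this array had the lowest weight, 0.12.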

How the results depend on the processing

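The counts of 743 higher and 990 lower genes depended on the arrays and the scaling. Leaving out 1 of the 6 arrays gave 216 to 1652 higher and 244 to 2236 lower genes, with the fewest higher without the day 0 cardiac lobe, the fewest lower without the day 7 cardiac lobe, and the most without the day 7 whole lung. With no region term, that is without pairing the arrays by region as a block, 208 were higher and 216 lower. The 6 arrays alone, with 2 residual degrees of freedom, gave 29 and 5. Sham as the control gave 473 and 429. Centring arrays on the median of genes gave 1133 and 743 (60.4% higher, against 42.9%), and on the median of all probe sets 480 and 1473 (24.6% higher), which moved the median difference of all genes to 0.087 and -0.045. Array weights gave 1322 and 1479, and the brighter genes alone 329 and 743 (30.7% higher). Leaving out the 2 arrays with narrow spreads, an alternative chosen after seeing the data like the centring on all probe sets, gave 489 and 563. The cause of these shifts was not tested.

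Without the day 7 cardiac lobe array, 307 genes were higher and 139 lower than in sham, 4 higher and 41 lower than at day 3, and day 14 had 14 higher and 58 lower than day 7. With sham as control 9 of 172 named genes changed sign, namely Cxcl9 (0.60), Dnah5 (0.016), Hsph1 (-0.57), Hspb1 (-0.12), Bhlhe41 (0.31), Nfil3 (-0.35), Nr1d1 (0.46), Dbp (1.74) and Per2 (0.98). None changed sign under the other settings tried, which is no separate support. Without the region term, with the 6 arrays alone and with the other prior, the difference itself stays the same, so its sign could not change. The 172 genes were also picked as called in the main fit, which shares most arrays with the remaining settings. Calls were lost for 88 of the 172 without the day 7 cardiac lobe array, for 84 and 90 without the day 0 cardiac lobe and whole lung, for 98 without the region term and for 160 with the 6 arrays alone. The 14 largest changes each way were named only if called without the day 7 cardiac lobe array. Their calls could therefore not be lost in that setting.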
